A study of Mus musculus with 12 samples.

Results

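Solute carriers are the membrane proteins of the Slc families, which move amino acids, sugars, ions, metals, vitamins and other small molecules across cell and organelle membranes. They were followed here in cultured mouse bone marrow progenitors with and without the leukaemia fusion protein RUNX1-ETO and the growth factor GM-CSF. The members were all array probes with an Slc family symbol, apart from Slc4a1, Slc40a1, Slc11a2 and Slc25a37, that lay above the background of the array on at least 6 of 12 arrays. The background of an array was the mode of its raw signals plus 2 SDs of their lower flank. By this rule 206 probes for 158 genes were members, among 25697 probes and 16593 genes on the array. The array held 474 probes with such a symbol (326 genes), of which 3 were left out by name. Of the 471 others, 265 did not pass, and 191 of those were above background on no array.

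The members were thus chosen by their raw signal on these arrays, so their levels are given as a description. 143 members (114 genes) were above background on all 12 arrays and the other 63 on 6 to 11 arrays. 8 members were above background on at least 3 more arrays of the RUNX1-ETO groups than of the vector groups (Slc16a13, Slc27a1, Slc2a9, Slc37a1, Slc41a2, Slc6a8 and a dimmer probe each of Slc39a4 and Slc7a2), and 3 the other way (Slc33a1 and a dimmer probe each of Slc39a8 and Slc43a2). A probe that passed mainly through the groups in which it is bright had to differ between groups, so counts are also given for the 143. For the probes with such uneven detection, an adjusted p given below is a description and no support for a difference. Just inside the limit, on 6 arrays, lay Slc24a5, Slc6a7 and single probes of Slc25a24, Slc39a4, Slc7a2 and Slc7a3, whose highest group mean was a log2 signal of 7.54 (the Slc39a4 probe in RE+GM cells). Just outside, on 5 arrays, lay Slc13a2, Slc17a2, Slc26a9 and a probe of Slc25a13, whose highest group mean was 6.53 (Slc26a9 in RE+GM cells). Slc7a6os, Slc4a1ap and Slc9a3r1 match the rule by name although their products are named after a neighbouring gene or a binding partner and are not carriers themselves.

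The cells came from the lineage-negative fraction of C57BL/6J bone marrow. They were kept with IL-3, SCF, FLT3 ligand and serum and infected for 24 h with a MigR1 retrovirus that also marks cells with green fluorescence. RE cells carried MigR1 with HA-tagged RUNX1-ETO, and Mig cells carried MigR1 alone. RE+GM and Mig+GM cells were the same cells given 10 ng/mL GM-CSF for the last 24 h, while RE and Mig cells had none. All 4 groups had 3 arrays each, and all were sorted for fluorescence, c-Kit and no lineage markers after 48 h of RUNX1-ETO expression in the RE groups. The fusion was thus driven by a retroviral vector for a short time in a mixed pool of cells. Nothing in the labels ties the numbered replicates to separate mice or cultures. The p-values therefore rest on the spread between these arrays, part or all of which may be technical. In such bulk samples, fewer cells of a type and less RNA per cell cannot be told apart.

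Facts of the whole arrays bear on what follows. Mean raw signal was 317.9 to 596.9 and 44.1% (RE replicate 1) to 53.4% (RE replicate 3) of probes lay above background. Replicates correlated at 0.9607 to 0.9928 across probes. Runx1t1, the mouse gene of the ETO part, was above background on every RE and RE+GM array and on no Mig or Mig+GM array. Among progenitor markers, Kit and Ly6a had no probe of that name and Flt3 was below background in all groups. The summed signal of 7 erythroid marker genes was 1767 to 2843 in RE and 10510 to 11770 in Mig cells, and 1387 to 2286 in RE+GM and 7050 to 10170 in Mig+GM cells. That of 8 neutrophil marker genes was 5351 to 17060 in RE and 15960 to 52900 in Mig cells, and 4618 to 12120 in RE+GM and 15690 to 68050 in Mig+GM cells. Both sums were thus lower in the RE groups, the neutrophil one with an overlap between RE and Mig arrays. That of 7 monocyte and macrophage genes was 6241 to 8566 in RE and 1373 to 5091 in Mig cells, and 6157 to 9200 in RE+GM and 1705 to 3369 in Mig+GM cells, with C1qa and Itgam below background in all groups. That of 6 mast cell and basophil genes was 48130 to 61070 in RE and 27990 to 37630 in Mig cells, and 47390 to 55420 in RE+GM and 14160 to 23810 in Mig+GM cells. In that list Cpa3 and Hdc were called higher in both comparisons, whereas Mcpt8 (-1.84 and -2.38) and Prss34 (-3.06 and -3.35) were called lower. RE replicate 1 was the lowest of all 12 arrays for 33 members and the highest for 32, and the next was Mig+GM replicate 1 with 28 and 27.

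Solute carriers work without hydrolysing ATP: they exchange, co-transport or passively conduct their substrates, and so depend on gradients that pumps set up. Large neutral amino acids enter many dividing cells through a heterodimer of the heavy chain Slc3a2 and a light chain such as Slc7a5 or Slc7a8. Folate, thiamine and biotin have carriers of their own, and the Slc25 family links the cytosol with the mitochondrial matrix. Macrophages and other phagocytes are known for carriers of the lysosome and phagosome, among them Slc15a3, Slc11a1 and Slc29a3.

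Solute carriers changed with RUNX1-ETO about as often as the other genes of the array. In 9 of 12 substrate classes some probes were called higher and others lower in each comparison. In the other 3 the few called probes were higher, too few to give a class a direction. They were 1 of 10 for lipids and 1 of 2 for nucleosides in each comparison, and for peptides and vesicles 3 of 6 without and 2 of 6 with GM-CSF. Of their probes above background on all 12 arrays, 0 of 4 for lipids were called, and for peptides 1 of 4 without and 0 of 4 with GM-CSF. Without GM-CSF, 46 member probes were higher and 38 lower in RE than in Mig cells at an adjusted p under 0.05 (limma, adjusted over all 14236 probes tested), which is 40.8% of the members. Among all probes tested 41.2% were called (18.3% higher, 22.9% lower), so the share of members called was near that of the array as a whole. With GM-CSF, 57 members were higher and 46 lower in RE+GM cells, relative to Mig+GM cells. This is 50% of the members against 46.6% of all probes tested (20.7% higher, 25.8% lower). Among the 143 members above background on all 12 arrays, 30 were higher and 33 lower without GM-CSF (44.1%, against 49.4% of all such probes), and 37 higher and 40 lower with it (53.8%, against 55.7%). The arrays of the groups compared did not overlap for 95 members without GM-CSF (46.1%, against 48.9% of all probes tested) and for 121 with it (58.7%, against 56.9%). The median log2 change of the members was -0.03 in each comparison, beside -0.06 for all probes tested in each. Changes of at least 2-fold were called for 16 higher and 10 lower members without GM-CSF (10.4% of all probes tested) and for 17 higher and 10 lower with it (14%). With scaling of the arrays to a common median and no quantile step (median scaling from here on), all probes shifted by -0.11 on the log2 scale in RE against Mig cells. The split of members was then 27 higher and 56 lower (1501 and 4523 over all probes), and with GM-CSF 48 higher and 34 lower.

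**Figure D1:**
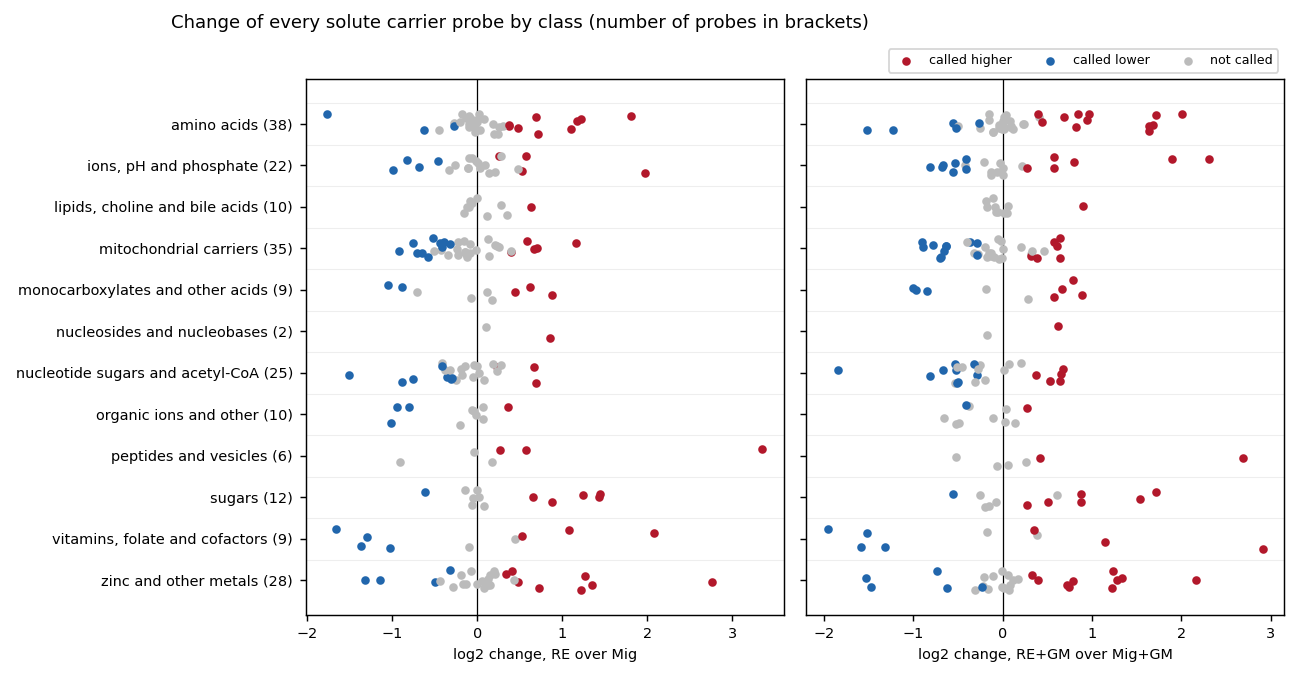
Every member probe, by the class of its substrate (number of probes in brackets), with its log2 change in RE over Mig cells (left) and RE+GM over Mig+GM cells (right). Red and blue points passed the test (limma adjusted p under 0.05), 46 higher and 38 lower on the left and 57 higher and 46 lower on the right. Most classes hold points on both sides of 0.

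The comparisons without and with GM-CSF share no arrays but come from a single fit with a shared estimate of the spread. Same-numbered Mig and Mig+GM arrays also correlated at 0.62 to 0.737 after removal of group means. The comparisons are therefore not independent. Of the members called higher in RE cells, 42 of 46 (91.3%) were also called higher in RE+GM cells, where they made up 73.7% of 57. Of those called lower in RE cells, 30 of 38 (78.9%) were also called lower in RE+GM cells, where they made up 65.2% of 46. No member was called in opposite directions, and 168 of 206 probes (81.6%) had the same sign in both. Over all probes tested, 82.1% of those called higher and 83.5% of those called lower in RE cells were called the same way in RE+GM cells, and 82.5% had the same sign. In neither comparison were probes of a gene called in opposite directions. Of the 36 genes with over 1 member probe, 10 had only some probes called without GM-CSF and 14 with it. Without GM-CSF they were Slc12a9, Slc15a4, Slc16a3, Slc16a6, Slc25a3, Slc25a11, Slc25a15, Slc35a1, Slc39a8 and Slc41a3. With it they were Slc12a2, Slc12a9, Slc16a3, Slc22a5, Slc25a11, Slc25a15, Slc25a20, Slc25a24, Slc25a38, Slc35a1, Slc35b3, Slc35e2, Slc38a2 and Slc39a8. For these genes the change of the brightest probe given below was not shared by every probe as a call.

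**Figure D2:**
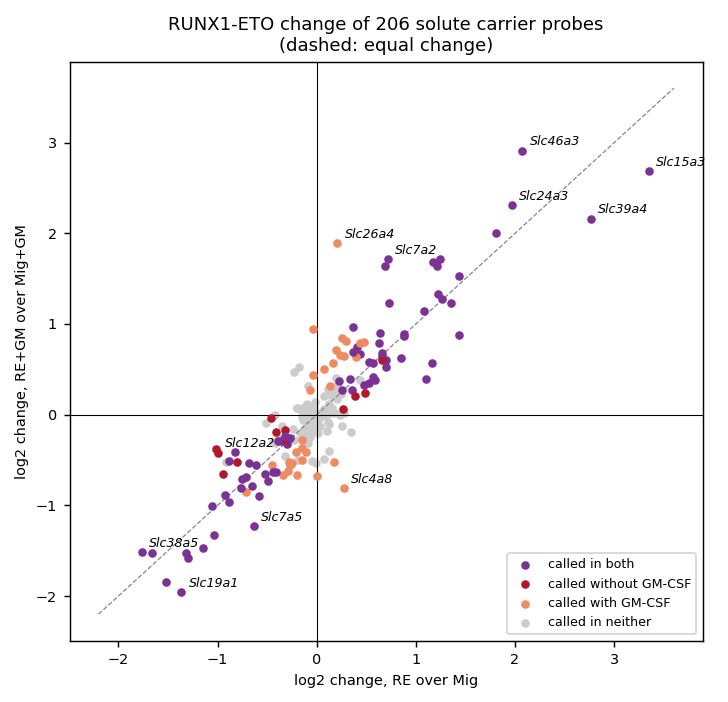
Log2 change of each of the 206 member probes in RE over Mig cells (horizontal) against that in RE+GM over Mig+GM cells (vertical), coloured by where it was called. Points called in both comparisons lie in the upper right and lower left, while Slc26a4 stands at 0.21 and 1.89 and Slc4a8 at 0.28 and -0.81.

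The member that rose most without GM-CSF was Slc15a3, a lysosomal carrier of histidine and small peptides found in macrophages and dendritic cells. Its log2 signal was 10.63, 10.14 and 10.33 in RE cells against 8.12, 6.18 and 6.75 in Mig cells, and 10.29, 10.27 and 10.22 in RE+GM cells against 8.21, 7.14 and 7.37 in Mig+GM cells. All RE and RE+GM arrays lay above every array of the vector groups, among which replicate 1 was the highest in each. The change was 3.35 (SE 0.40, adjusted p = 6.1e-05) without GM-CSF and 2.68 (SE 0.40, adjusted p = 0.000205) with it, about 10.2-fold and 6.42-fold. The Mig replicate 2 value of 6.18 lay below the background of that array (6.39), so the 10.2-fold rests partly on a value at the floor. In the rest of the peptide and vesicle class (6 probes, 5 genes), Slc17a9, the vesicular nucleotide carrier that loads ATP, rose by 0.57 (SE 0.10, adjusted p = 0.000634) in RE and 0.42 (SE 0.10, adjusted p = 0.00362) in RE+GM cells. Slc15a4, the related endolysosomal carrier needed for Toll-like receptor signalling, was called higher in RE cells (0.27, SE 0.09, adjusted p = 0.037) and not in RE+GM cells (0.06). With median scaling the change in RE cells was -0.02 (adjusted p = 0.928), and the call was also lost without RE replicate 2 or 3 or Mig replicate 2 or 3 (adjusted p reaching 0.128, without Mig replicate 2). The other probe of Slc15a4 was not called in either comparison (-0.04 and -0.07). Slc17a5, the sialic acid exporter of lysosomes, was not called in RE+GM cells (0.26) except with the replicate block (adjusted p = 0.0488). Slc18a2, which loads monoamines such as histamine into granules of mast cells, was not called (-0.91, SE 0.36, adjusted p = 0.0589 in RE cells). The monocyte and macrophage marker sum given above was also higher in RE and RE+GM cells, without overlap, with Adgre1 and Cd14 called higher without GM-CSF. With GM-CSF Adgre1 was called and Cd14 was not (0.06), while Lyz2 and C1qb were called in neither comparison. The part of these markers in the result was not tested.

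**Figure D3:**
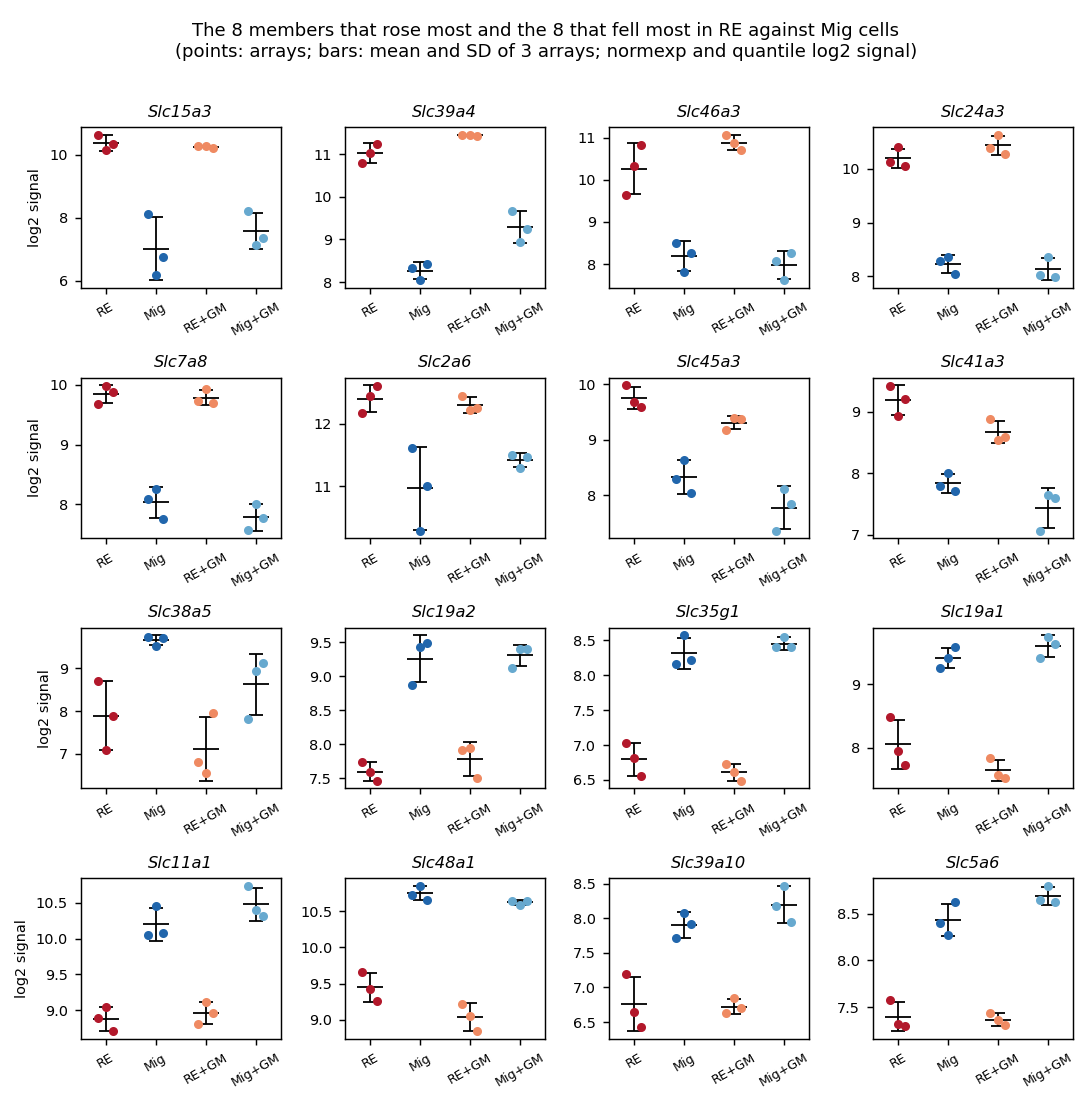
Log2 signal of the 8 member genes with the largest called rise (upper rows) and the 8 with the largest called fall (lower rows) in RE against Mig cells, by group. Points are arrays and bars the mean and SD of 3 arrays. For Slc15a3 the RE arrays sit between 10.14 and 10.63 and the Mig arrays between 6.18 and 8.12, and Slc38a5 has the widest spread in RE cells among the genes that fell.

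Carriers of zinc and other metals (28 probes, 19 genes) were split, with 8 probes higher and 4 lower in RE and 10 higher and 5 lower in RE+GM cells. Slc39a4, a zinc importer best known from the gut, had log2 signals of 10.79, 11.04 and 11.25 in RE cells against 8.33, 8.04 and 8.42 in Mig cells, and of 11.45, 11.46 and 11.43 in RE+GM cells against 9.68, 8.94 and 9.25 in Mig+GM cells. The RE and RE+GM arrays all lay above the vector arrays, and the 3 RE+GM arrays were nearly equal. It rose by 2.76 (SE 0.18, adjusted p = 5.39e-07) and 2.16 (SE 0.18, adjusted p = 2.69e-06). Its dimmer probe was above background on 2 RE, 3 RE+GM, 0 Mig and 1 Mig+GM arrays. It is a member mainly through the RUNX1-ETO groups and adds nothing to the rise of the brighter one. Slc41a3, a mitochondrial magnesium carrier, had 9.43, 8.94 and 9.21 in RE against 7.79, 8.01 and 7.72 in Mig cells and 8.88, 8.54 and 8.59 in RE+GM against 7.07, 7.65 and 7.60 in Mig+GM cells. Its groups did not overlap in either comparison, with changes of 1.35 (SE 0.17, adjusted p = 9.6e-05) and 1.23 (SE 0.17, adjusted p = 0.000126). Slc31a2, a relative of the copper importer Slc31a1 that sits on inner membranes, rose by 1.22 (SE 0.24, adjusted p = 0.00173) and 1.33 (SE 0.24, adjusted p = 0.000763), whereas Slc31a1 was not called in either comparison (0.12 and 0.11). Slc41a2, a relative of Slc41a3 that also carries magnesium, rose by 0.40 (SE 0.11, adjusted p = 0.0103) and 0.74 (SE 0.11, adjusted p = 0.000144). Being detected on more RUNX1-ETO than vector arrays, as listed above, it is given as a description. Slc30a7, which loads zinc into the Golgi and secretory pathway, had both its probes called higher in both comparisons. Its brighter probe rose by 0.48 (SE 0.11, adjusted p = 0.00483) (0.06, adjusted p = 0.774, with median scaling) and 0.32 (SE 0.11, adjusted p = 0.0315), the second lost without RE+GM replicate 1, 2 or 3 or Mig+GM replicate 2 or 3 (adjusted p reaching 0.12, without Mig+GM replicate 3) and with median scaling (adjusted p = 0.0536). Slc30a1, the zinc exporter of the cell surface, rose by 0.72 (SE 0.14, adjusted p = 0.00103) in RE+GM cells and was not called in RE cells (0.19, adjusted p = 0.294).

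Slc11a1 and Slc39a10 were the metal carriers that fell most. Slc11a1, the proton-coupled phagosomal metal carrier of macrophages and neutrophils also known as Nramp1, had 8.89, 9.04 and 8.70 in RE against 10.06, 10.46 and 10.08 in Mig cells and 8.81, 9.11 and 8.95 in RE+GM against 10.74, 10.39 and 10.31 in Mig+GM cells. No RE or RE+GM array reached the lowest vector array, and the change was -1.32 (SE 0.15, adjusted p = 4.28e-05) and -1.52 (SE 0.15, adjusted p = 9.75e-06). Slc39a10, a zinc importer of the cell surface that early B cells and macrophages need, had 7.19, 6.65 and 6.43 in RE against 7.71, 8.08 and 7.92 in Mig cells and 6.63, 6.84 and 6.70 in RE+GM against 8.18, 8.47 and 7.94 in Mig+GM cells. Its groups did not overlap, and it fell by 1.14 (SE 0.19, adjusted p = 0.000538) and 1.47 (SE 0.19, adjusted p = 6.59e-05) on the log2 scale. Slc30a6, which brings zinc into the Golgi, fell by 0.49 (SE 0.13, adjusted p = 0.00995) and 0.73 (SE 0.13, adjusted p = 0.000691). Slc39a6, a zinc importer related to Slc39a10, was not called in RE cells (-0.29) and was lower in RE+GM cells (-0.63, SE 0.16, adjusted p = 0.00689). For Slc39a8, a zinc and manganese importer, the brighter probe was not called (-0.44 and -0.31), while the dimmer one, above background on 0 RE and 1 RE+GM against 3 Mig and 3 Mig+GM arrays, is a member mainly through the vector groups. The neutrophil marker sum given above was also lower in RE cells, with overlap between the groups, and lower without overlap in RE+GM cells. Of its 8 genes only Elane was called lower in RE cells (-1.93). In RE+GM cells Elane (-1.66) and Mpo (-1.73) were called lower and Mmp9 higher (0.27), and 5 were not called. S100a8 and S100a9 were called in neither comparison. The monocyte and macrophage sum was higher in both, opposite to Slc11a1. The part of either in the change of Slc11a1 was not tested. Mt1 and Mt2, the zinc-binding metallothioneins and no carriers, were called higher in both comparisons, Mt1 by 0.96 in RE and 1.46 in RE+GM cells on the log2 scale. Mt2 was higher by 1.29 on that scale in RE cells and at least 3.38-fold in RE+GM cells (adjusted p = 2.31e-06), since all Mig+GM arrays were below background.

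Of the 9 genes for vitamins, folate and cofactors, 1 probe each, 3 were higher and 4 lower in both comparisons. Slc23a4 and the ascorbate carrier Slc23a2 were not called, although Slc23a2 (0.39 in RE+GM cells) passed with the replicate block (adjusted p = 0.00454). Slc19a1, the reduced folate carrier, had log2 signals of 8.48, 7.94 and 7.73 in RE against 9.26, 9.41 and 9.58 in Mig cells and 7.83, 7.57 and 7.53 in RE+GM against 9.41, 9.75 and 9.64 in Mig+GM cells. Its RE and RE+GM arrays all lay below the vector arrays, with changes of -1.36 (SE 0.18, adjusted p = 0.00011) and -1.96 (SE 0.18, adjusted p = 5.48e-06). Slc19a2, a thiamine carrier of the same family, had 7.74, 7.59 and 7.46 in RE against 8.87, 9.43 and 9.49 in Mig cells and 7.91, 7.95 and 7.50 in RE+GM against 9.13, 9.40 and 9.40 in Mig+GM cells. The lowest vector array was Mig replicate 1, still above every RE and RE+GM array, and the change was -1.66 (SE 0.17, adjusted p = 2.3e-05) and -1.52 (SE 0.17, adjusted p = 2.8e-05). Slc5a6, the sodium-coupled carrier of biotin and pantothenate, had 7.58, 7.32 and 7.30 in RE against 8.40, 8.28 and 8.62 in Mig cells and 7.44, 7.36 and 7.31 in RE+GM against 8.65, 8.80 and 8.63 in Mig+GM cells. It changed by -1.03 (SE 0.11, adjusted p = 3.01e-05) and -1.32 (SE 0.11, adjusted p = 3.45e-06), without overlap.

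Slc48a1, which exports heme from lysosomes to the cytosol, was the other member of this class that fell. It had 9.67, 9.43 and 9.27 in RE against 10.73, 10.85 and 10.66 in Mig cells and 9.22, 9.06 and 8.84 in RE+GM against 10.64, 10.58 and 10.65 in Mig+GM cells. The vector arrays lay close together and well above every RE and RE+GM array, with changes of -1.29 (SE 0.12, adjusted p = 1.05e-05) and -1.58 (SE 0.12, adjusted p = 1.76e-06). The erythroid marker sum given above was lower in RE and RE+GM cells without overlap, with Tfrc, Klf1, Ermap and Hba-a1 called lower in RE cells. In the same list Gata1 (-0.03) and Epor (-0.38) were not called in RE cells. Alas2 went the other way, above background on an RE and an RE+GM array and on no Mig or Mig+GM array, too few to be tested. The part of the erythroid sum in the change of Slc48a1 was not tested. The carriers of this class that rose included Slc46a3, a lysosomal membrane carrier whose relative Slc46a1 imports folate and heme. Slc46a3 had 9.63, 10.33 and 10.84 in RE against 8.51, 7.80 and 8.26 in Mig cells and 11.08, 10.88 and 10.70 in RE+GM against 8.07, 7.61 and 8.25 in Mig+GM cells. The RE arrays were spread over more than 1 log2 unit and still did not overlap with the Mig arrays, and the change was 2.07 (SE 0.28, adjusted p = 0.000134) and 2.91 (SE 0.28, adjusted p = 7.88e-06). Slc52a3, a riboflavin importer, rose by 1.08 (SE 0.17, adjusted p = 0.000413) and 1.15 (SE 0.17, adjusted p = 0.000195). Slc46a1, the proton-coupled folate carrier, rose by 0.53 (SE 0.12, adjusted p = 0.00391) and 0.35 (SE 0.12, adjusted p = 0.0306), and the call with GM-CSF was lost without RE+GM replicate 1, 2 or 3 or Mig+GM replicate 1 or 3 (adjusted p reaching 0.0947, without Mig+GM replicate 1). The reduced folate carrier thus fell and the proton-coupled one rose.

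**Figure D4:**
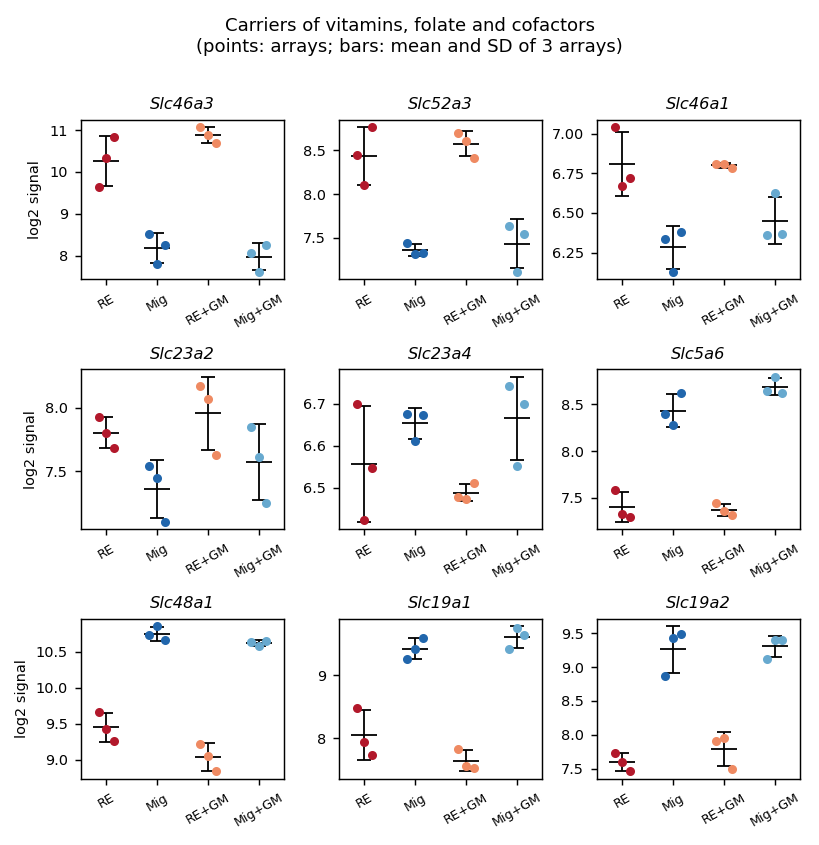
Log2 signal of the 9 member genes for vitamins, folate and cofactors by group, ordered by their change in RE against Mig cells. Points are arrays and bars the mean and SD of 3 arrays. Slc46a3, Slc52a3 and Slc46a1 are higher in the RE groups, and Slc48a1, Slc5a6, Slc19a1 and Slc19a2 are lower there.

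Amino acid carriers were the largest class, with 38 probes for 31 genes. In RE cells 9 probes were higher and 3 lower, and in RE+GM cells 12 were higher and 5 lower. The light chains of the Slc3a2 heterodimer moved apart. Slc7a8, the light chain LAT2, had 9.68, 9.98 and 9.87 in RE against 8.09, 8.26 and 7.75 in Mig cells and 9.74, 9.93 and 9.69 in RE+GM against 7.56, 8.01 and 7.77 in Mig+GM cells. All RE and RE+GM arrays lay more than 1 log2 unit above the vector arrays, and it rose by 1.81 (SE 0.15, adjusted p = 4.37e-06) and 2.01 (SE 0.15, adjusted p = 1.55e-06), with a dimmer probe also higher in both. Slc7a5, the light chain LAT1, had 11.06, 10.64 and 10.69 in RE against 11.48, 11.50 and 11.32 in Mig cells and 10.37, 10.10 and 10.35 in RE+GM against 11.39, 11.61 and 11.50 in Mig+GM cells. It lay below the vector arrays on each RE and RE+GM array and changed by -0.63 (SE 0.13, adjusted p = 0.00183) and -1.23 (SE 0.13, adjusted p = 1.27e-05). Slc3a2 itself had 8.23, 8.82 and 8.67 in RE against 8.58, 8.64 and 8.61 in Mig cells and 9.01, 9.22 and 9.32 in RE+GM against 8.58, 8.73 and 8.93 in Mig+GM cells. RE and Mig arrays overlapped (change -0.04, SE 0.15, adjusted p = 0.869), and with GM-CSF it was 0.44 (SE 0.15, adjusted p = 0.0297) higher in RE+GM cells, a call lost with median scaling (adjusted p = 0.0791) and without RE+GM replicate 2 or 3 or Mig+GM replicate 1 or 2 (adjusted p reaching 0.106, without RE+GM replicate 3). Slc7a6, a light chain for exchange of arginine and glutamine, was not called in RE cells (-0.28) and was lower in RE+GM cells (-0.52, SE 0.14, adjusted p = 0.0104). Slc7a7 and Slc7a11, the cystine carrier, were not called in either comparison (Slc7a11 -0.07 and -0.25).

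Among the glutamine and neutral amino acid carriers, Slc38a5, which moves glutamine and serine with sodium, fell most. Its log2 signals were 8.70, 7.09 and 7.88 in RE against 9.73, 9.53 and 9.72 in Mig cells and 6.81, 6.56 and 7.97 in RE+GM against 7.81, 8.95 and 9.12 in Mig+GM cells. The RE arrays were widely spread but below all Mig arrays, whereas RE+GM replicate 3 lay above Mig+GM replicate 1. The change was -1.77 (SE 0.45, adjusted p = 0.00828) without GM-CSF and -1.51 (SE 0.45, adjusted p = 0.0161) with it, and the second call was lost without RE+GM replicate 1 or 2 or Mig+GM replicate 2 or 3 (adjusted p reaching 0.0709, without RE+GM replicate 2). Slc14a1, the urea carrier of red cells and of another class, had all its 3 probes called lower in RE cells and none in RE+GM cells. Its brightest probe changed by -0.95 (SE 0.34, adjusted p = 0.0432) in RE cells, a call lost without any single array other than RE replicate 1 and Mig+GM replicate 1, 2 and 3 (adjusted p reaching 0.158, without RE replicate 2). The lower erythroid marker sum stands beside both genes as well, and its part was not tested. Slc38a2, a neutral amino acid carrier induced by amino acid shortage, was not called in RE cells (0.19). In RE+GM cells its brightest probe changed by 0.40 (SE 0.17, adjusted p = 0.0651), called with the replicate block (adjusted p = 0.00313), and another probe was called higher without it. Slc38a1 was not called (-0.06 and -0.15), and Slc1a4, an exchanger of serine, alanine and cysteine, was called lower in RE+GM cells (-0.56, SE 0.18, adjusted p = 0.0226, lost without RE+GM replicate 2 or 3 or Mig+GM replicate 2 or 3, adjusted p reaching 0.0805, without RE+GM replicate 2). Slc38a7 and Slc38a10, both of the glutamine carrier family, were called higher in RE cells, but neither call held with median scaling (adjusted p = 0.109 and 0.299). Slc38a7 changed by 0.48 (SE 0.16, adjusted p = 0.034), lost without RE replicate 1 or 2 or Mig replicate 2 or 3 (adjusted p reaching 0.133, without Mig replicate 2). Slc38a10 changed by 0.37 (SE 0.13, adjusted p = 0.045), lost without any single array other than RE replicate 1, RE+GM replicate 2 and 3 and Mig replicate 3 (adjusted p reaching 0.157, without RE replicate 3), and by 0.69 (SE 0.13, adjusted p = 0.00123) in RE+GM cells. Slc1a5 and Slc7a1 did not pass the limit on background, Slc1a5 with 3 arrays above it and Slc7a1 with fewer than 3.

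In the Slc6 family, which moves amino acids and their derivatives with sodium, 3 of 7 member genes rose in both comparisons. Slc6a8, the creatine carrier, had 7.78, 7.11 and 7.57 in RE against 6.50, 6.34 and 6.10 in Mig cells and 7.91, 8.05 and 7.81 in RE+GM against 6.31, 6.20 and 6.21 in Mig+GM cells. It was below background on every Mig+GM array and in RE+GM cells at least 2.93-fold higher (fitted change 1.68, SE 0.16, adjusted p = 7e-06), and in RE cells it rose by 1.18 (SE 0.16, adjusted p = 0.000137). Mig replicates 2 and 3 lay below background as well. Slc6a8 passed the limit on more RUNX1-ETO than vector arrays, so its calls are a description. Slc6a13, a GABA and taurine carrier, had 10.37, 10.35 and 10.33 in RE against 9.38, 9.08 and 9.29 in Mig cells and 9.80, 9.89 and 9.97 in RE+GM against 9.73, 9.41 and 9.33 in Mig+GM cells. Its rise was 1.10 (SE 0.12, adjusted p = 2.48e-05) without GM-CSF and 0.40 (SE 0.12, adjusted p = 0.0148) with it, and the second call was lost without RE+GM replicate 3 or Mig+GM replicate 2 or 3 (adjusted p reaching 0.062, without Mig+GM replicate 3), and with median scaling (adjusted p = 0.0522). Slc6a19, a neutral amino acid carrier known from gut and kidney, rose by 0.69 (SE 0.18, adjusted p = 0.00799) and 1.64 (SE 0.18, adjusted p = 1.73e-05). Slc6a6, the taurine carrier (log2 signal 10.83 ± 0.24 in RE and 10.84 ± 0.22 in Mig cells, SD, n = 3), was not called.

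Sugar carriers had 5 probes higher and 1 lower of 12 genes in RE cells, and 6 higher and 1 lower in RE+GM cells. Slc2a6, a hexose carrier of lysosomes that inflammatory macrophages induce, had 12.17, 12.44 and 12.60 in RE against 11.61, 10.29 and 11.001 in Mig cells and 12.44, 12.22 and 12.25 in RE+GM against 11.50, 11.30 and 11.46 in Mig+GM cells. The groups did not overlap, although the Mig arrays were spread widely. It rose by 1.44 (SE 0.25, adjusted p = 0.00079) and 0.88 (SE 0.25, adjusted p = 0.0128), with the second at an adjusted p of 0.0558 under median scaling. Slc2a9, which carries urate, had 7.19, 7.66 and 7.97 in RE against 6.33, 6.39 and 6.37 in Mig cells and 7.88, 7.81 and 7.84 in RE+GM against 6.05, 5.996 and 6.35 in Mig+GM cells. RE+GM arrays were nearly equal and every RE array was above every Mig array, with changes of 1.24 (SE 0.16, adjusted p = 0.000115) and 1.71 (SE 0.16, adjusted p = 7.75e-06). Mig+GM replicates 1 and 2 lay below background and the Mig arrays at its edge, so both changes rest partly on values at the floor. Slc2a9 was also detected on more RUNX1-ETO than vector arrays, so its calls are a description. Slc45a3, a sugar carrier known as prostein, had 9.99, 9.68 and 9.60 in RE against 8.29, 8.65 and 8.05 in Mig cells and 9.17, 9.39 and 9.38 in RE+GM against 7.37, 8.12 and 7.85 in Mig+GM cells. It rose by 1.43 (SE 0.20, adjusted p = 0.000155) and 1.53 (SE 0.20, adjusted p = 6.56e-05) without overlap. Slc37a1, a phosphate-linked glucose 6-phosphate exchanger of the endoplasmic reticulum, was below background on all Mig arrays and at least 1.75-fold higher in RE cells (fitted change 0.87, SE 0.09, adjusted p = 1.64e-05). Its detection was likewise uneven, on more RUNX1-ETO than vector arrays, so this value is a description.

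The main glucose importers gave weaker calls. Slc2a1, GLUT1, had 10.41, 11.06 and 11.60 in RE against 10.22, 10.27 and 10.62 in Mig cells and 11.39, 11.52 and 11.57 in RE+GM against 11.05, 10.60 and 11.02 in Mig+GM cells. RE replicate 1 lay within the Mig arrays, and the other RE arrays above them. The change in RE cells, 0.65 (SE 0.24, adjusted p = 0.05), lay just under the threshold and was 0.19 (adjusted p = 0.672) with median scaling. The call was also lost without any single array other than RE replicate 1, Mig replicate 3 and Mig+GM replicate 2 (adjusted p reaching 0.183, without RE replicate 3). In RE+GM cells the change was 0.60 (SE 0.24, adjusted p = 0.0613), called with the replicate block (adjusted p = 0.0256). Slc2a3, GLUT3, was not called in RE cells (0.08) and was called higher in RE+GM cells (0.51, SE 0.19, adjusted p = 0.0415, lost with median scaling at 0.0903 and without RE+GM replicate 2 or 3, Mig replicate 1 or Mig+GM replicate 1 or 2, adjusted p reaching 0.17, without RE+GM replicate 3). Slc50a1, a sugar exporter of the SWEET family, was called higher in RE+GM cells (0.27, SE 0.09, adjusted p = 0.0318, lost with median scaling at 0.105 and without RE+GM replicate 1 or 2 or Mig+GM replicate 2 or 3, adjusted p reaching 0.126, without Mig+GM replicate 2) and not in RE cells (-0.07). Slc45a4 fell by 0.61 (SE 0.17, adjusted p = 0.0118) in RE cells and by 0.56 (SE 0.17, adjusted p = 0.0167) in RE+GM cells, the second lost with median scaling at 0.102 and without RE+GM replicate 3 or Mig+GM replicate 2 (adjusted p reaching 0.0659, without RE+GM replicate 3).

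Among carriers of monocarboxylates and other acids (9 probes, 6 genes), the monocarboxylate family moved both ways. Slc16a6, known in zebrafish to export ketone bodies from the liver, had 8.87, 8.81 and 8.75 in RE against 9.92, 9.69 and 9.49 in Mig cells and 8.78, 8.70 and 8.65 in RE+GM against 9.68, 9.89 and 9.45 in Mig+GM cells on its brightest probe. The RE groups lay below all vector arrays, with changes of -0.89 (SE 0.13, adjusted p = 0.000225) and -0.96 (SE 0.13, adjusted p = 8.85e-05). Slc16a13, another member of the monocarboxylate family, was below background on all Mig arrays and at least 1.75-fold higher in RE cells (fitted change 0.88, SE 0.09, adjusted p = 2.07e-05), and rose by 0.89 (SE 0.09, adjusted p = 1.24e-05) in RE+GM cells. Detection of Slc16a13 was uneven, on more RUNX1-ETO than vector arrays as listed above, so these values are a description. Slc16a9 rose by 0.62 (SE 0.10, adjusted p = 0.00039) and 0.79 (SE 0.10, adjusted p = 5.27e-05). Slc16a10, which carries aromatic amino acids, was not called in RE cells (0.17) and rose by 0.57 (SE 0.11, adjusted p = 0.00104) in RE+GM cells. The lactate exporter Slc16a3 was called higher in RE cells (0.44, SE 0.16, adjusted p = 0.0466) but not with median scaling (0.33, adjusted p = 0.162) and not without any single array other than RE+GM replicate 1 and 3 and Mig+GM replicate 2 and 3 (adjusted p reaching 0.166, without Mig replicate 1). In RE+GM cells it rose by 0.67 (SE 0.16, adjusted p = 0.00478). These are values of the brighter probe of Slc16a3. Its dimmer probe was not called in either comparison and had the opposite sign (-0.08 and -0.19). Slc16a1, the other main lactate carrier, was above background on fewer than 3 arrays and was not a member.

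Of 35 probes for mitochondrial carriers, 5 were higher (14.3%) and 10 lower (28.6%) in RE cells and 6 higher (17.1%) and 11 lower (31.4%) in RE+GM cells. Over all probes tested 18.3% were higher and 22.9% lower in RE and 20.7% higher and 25.8% lower in RE+GM cells, and the difference from these shares was not tested. Their median change was -0.15 and -0.13, beside -0.06 for all probes tested in each comparison. Slc25a32, which takes folate or FAD into mitochondria, had 6.65, 6.47 and 6.60 in RE against 7.28, 7.55 and 7.65 in Mig cells and 6.63, 6.69 and 6.58 in RE+GM against 7.60, 7.34 and 7.63 in Mig+GM cells. Its groups did not overlap and the change was -0.92 (SE 0.12, adjusted p = 8.12e-05) and -0.89 (SE 0.12, adjusted p = 7.21e-05). Slc25a33, a pyrimidine nucleotide carrier, changed by -0.58 (SE 0.16, adjusted p = 0.0119) and -0.90 (SE 0.16, adjusted p = 0.000613), the first at an adjusted p of 0.0553 without Mig replicate 3. The ornithine carrier Slc25a15 (-0.65 and -0.78), the aspartate-glutamate carrier Slc25a13 (-0.52 and -0.66) and the S-adenosylmethionine carrier Slc25a26 (-0.42 and -0.64) were also called lower in both comparisons. The dimmer probe of Slc25a15 was called in neither (-0.12 and -0.20). Slc25a16, linked to coenzyme A import, changed by -0.71 (SE 0.15, adjusted p = 0.00276) and -0.69 (SE 0.15, adjusted p = 0.00267). Slc25a38, a glycine carrier needed for heme synthesis, was not called in RE cells (-0.15 on the brightest of 3 probes) and gave -0.28 (SE 0.11, adjusted p = 0.0473) in RE+GM cells. That call was lost with median scaling (adjusted p = 0.378) and without any single array other than RE replicate 1 and 3 and RE+GM replicate 3 (adjusted p reaching 0.179, without RE+GM replicate 2). Slc25a17, a peroxisomal cofactor carrier of the same family, fell by 0.75 (SE 0.11, adjusted p = 0.000287) and 0.71 (SE 0.11, adjusted p = 0.000336).

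Slc25a5, an ADP/ATP translocase of the inner mitochondrial membrane, had 13.55, 13.46 and 13.54 in RE against 13.92, 13.90 and 14.05 in Mig cells and 13.37, 13.14 and 13.34 in RE+GM against 13.71, 13.99 and 14.05 in Mig+GM cells. It lay lower on every RE and RE+GM array, with changes of -0.44 (SE 0.11, adjusted p = 0.00636) and -0.63 (SE 0.11, adjusted p = 0.000474), although the first was not called with the authors' normalized values (adjusted p = 0.072). Slc25a3, the phosphate carrier, was called lower in RE cells (-0.32, SE 0.11, adjusted p = 0.0387) but that call was lost without RE replicate 1 or 3, RE+GM replicate 3 or Mig replicate 1, 2 or 3 (adjusted p reaching 0.133, without RE replicate 1) and with the authors' values (0.464), and it was not called in RE+GM cells (-0.17). The translocase Slc25a4 had no probe of that name. Among those that rose, the orphan carrier Slc25a45 had 9.82, 10.02 and 10.15 in RE against 9.02, 8.53 and 8.96 in Mig cells and 9.77, 9.82 and 9.82 in RE+GM against 9.56, 8.90 and 9.24 in Mig+GM cells. It rose by 1.16 (SE 0.17, adjusted p = 0.000231) and 0.57 (SE 0.17, adjusted p = 0.0156), the second at an adjusted p of 0.0681 without Mig+GM replicate 2. Slc25a11, the oxoglutarate carrier, rose by 0.70 (SE 0.17, adjusted p = 0.00566) on its brightest probe (0.28, adjusted p = 0.324, with median scaling) and 0.60 (SE 0.17, adjusted p = 0.0112). Another of its 3 probes was not called in RE cells, at -0.23, and only the brightest was called in RE+GM cells. Slc25a25, an ATP-magnesium and phosphate carrier, rose by 0.66 (SE 0.16, adjusted p = 0.00629) and 0.65 (SE 0.16, adjusted p = 0.00585), the first at an adjusted p of 0.0535 with median scaling. Slc25a28, the iron carrier mitoferrin-2, had 10.37, 10.28 and 10.48 in RE against 9.59, 9.81 and 9.97 in Mig cells and 10.09, 10.34 and 10.57 in RE+GM against 9.94, 9.82 and 10.10 in Mig+GM cells. RE arrays lay above all Mig arrays, while RE+GM replicate 1 lay just below Mig+GM replicate 3. Its change was 0.59 (SE 0.14, adjusted p = 0.00494) and 0.38 (SE 0.14, adjusted p = 0.0399), and neither held with median scaling (adjusted p = 0.538 and 0.0775). The second was also lost without RE+GM replicate 2 or 3, Mig replicate 2 or Mig+GM replicate 1 or 2 (adjusted p reaching 0.167, without RE+GM replicate 3). Slc25a20, the carnitine-acylcarnitine carrier, was not called in RE cells (0.14) and gave 0.32 (SE 0.10, adjusted p = 0.018) in RE+GM cells, lost with median scaling at 0.0785 and without RE+GM replicate 1 or 3 or Mig+GM replicate 1 (adjusted p reaching 0.071, without Mig+GM replicate 1). Slc25a24, of the same family as Slc25a25, had 1 of its 3 probes called, higher in RE+GM cells (0.64, SE 0.19, adjusted p = 0.0143, lost without RE+GM replicate 1 or Mig+GM replicate 3, adjusted p reaching 0.0644, without RE+GM replicate 1).

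Carriers of nucleotide sugars and acetyl-CoA (25 probes, 18 genes), which supply the Golgi and endoplasmic reticulum for glycan building, had 3 probes higher and 7 lower in RE and 5 higher and 9 lower in RE+GM cells. Slc35g1, placed in this class by its family number and not by a known substrate, had 7.03, 6.81 and 6.56 in RE against 8.15, 8.57 and 8.22 in Mig cells and 6.72, 6.62 and 6.49 in RE+GM against 8.40, 8.55 and 8.40 in Mig+GM cells. The RE and RE+GM arrays lay more than 1 log2 unit below every vector array, with changes of -1.52 (SE 0.14, adjusted p = 8.92e-06) and -1.84 (SE 0.14, adjusted p = 1.62e-06). The CMP-sialic acid carrier Slc35a1 changed by -0.76 (SE 0.15, adjusted p = 0.00165) and -0.81 (SE 0.15, adjusted p = 0.000874) on its brighter probe, while its dimmer one was not called. Slc35c1, the GDP-fucose carrier needed for selectin ligands, was not called in RE cells (-0.20) and was lower in RE+GM cells (-0.66, SE 0.13, adjusted p = 0.00112). Slc35b3, a carrier of the sulfate donor PAPS, was not called in RE cells (0.28) and was higher in RE+GM cells (0.64, SE 0.12, adjusted p = 0.00102). Slc35d1, a carrier of UDP-glucuronic acid for cartilage glycans, changed by -0.30 (SE 0.08, adjusted p = 0.0098) and -0.33 (SE 0.08, adjusted p = 0.00496) (adjusted p = 0.0721 with median scaling for the second). Slc35e2 changed by -0.88 (SE 0.12, adjusted p = 0.000107) and -0.51 (SE 0.12, adjusted p = 0.00315). Its dimmer probe was called lower in RE cells (-0.41) and was not called in RE+GM cells (-0.20). Of those that rose, Slc35b4, which carries UDP-xylose and UDP-N-acetylglucosamine, changed by 0.69 (SE 0.14, adjusted p = 0.00167) and 0.53 (SE 0.14, adjusted p = 0.00727), the first at an adjusted p of 0.244 with median scaling. The UDP-galactose carrier Slc35a2 changed by 0.23 (SE 0.08, adjusted p = 0.044) and 0.37 (SE 0.08, adjusted p = 0.00277). Its first call was lost with median scaling (0.01, adjusted p = 0.968) and without any single array other than RE+GM replicate 2 and 3 (adjusted p reaching 0.122, without Mig replicate 1). Slc35d3, known from platelet dense granules, changed by 0.66 (SE 0.23, adjusted p = 0.0403) and 0.68 (SE 0.23, adjusted p = 0.0323). The first was lost with median scaling (adjusted p = 0.112) and without RE replicate 1 or 3, RE+GM replicate 1 or Mig replicate 1 or 3 (adjusted p reaching 0.125, without Mig replicate 3), and the second without RE+GM replicate 1 or 3 or Mig+GM replicate 1 (adjusted p reaching 0.137, without RE+GM replicate 3). Slc33a1, the acetyl-CoA carrier, was called lower in both (-0.36 and -0.29), and the second call was lost without RE+GM replicate 2 or 3 or Mig+GM replicate 1 or 2 (adjusted p reaching 0.0905, without RE+GM replicate 3). It was detected on more vector than RUNX1-ETO arrays as listed above, so its calls are a description.

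Carriers of ions, pH and phosphate (22 probes, 18 genes) had 4 probes higher and 4 lower in RE cells and 6 higher and 7 lower in RE+GM cells. Slc24a3, a potassium-dependent sodium-calcium exchanger, had 10.12, 10.41 and 10.06 in RE against 8.28, 8.36 and 8.04 in Mig cells and 10.40, 10.64 and 10.28 in RE+GM against 8.03, 8.36 and 7.99 in Mig+GM cells. The arrays of the RE groups lay far above those of the vector groups, with changes of 1.97 (SE 0.14, adjusted p = 1.57e-06) and 2.31 (SE 0.14, adjusted p = 3.67e-07). Slc12a2, the sodium-potassium-chloride cotransporter that restores cell volume, had 8.13, 7.92 and 8.33 in RE against 8.84, 9.12 and 9.42 in Mig cells and 8.62, 8.61 and 8.57 in RE+GM against 8.86, 8.89 and 9.30 in Mig+GM cells. Without overlap it changed by -0.999 (SE 0.16, adjusted p = 0.000474) in RE cells, and by -0.42 (SE 0.16, adjusted p = 0.0526) in RE+GM cells, called with the replicate block (adjusted p = 0.0166). The other probe of Slc12a2 was called lower in both comparisons (-0.83 and -0.41). Slc20a1, a sodium-phosphate cotransporter that is also a retrovirus receptor, changed by -0.69 (SE 0.15, adjusted p = 0.00267) and -0.54 (SE 0.15, adjusted p = 0.00946), the second at an adjusted p of 0.0517 with median scaling. Slc20a2, its close relative, was not called in RE cells (-0.34) and was lower in RE+GM cells (-0.67, SE 0.15, adjusted p = 0.00272), as was Slc12a3, a sodium-chloride cotransporter known from the kidney (-0.56, SE 0.12, adjusted p = 0.0021). Slc8a1, the sodium-calcium exchanger of the cell surface, was lower in RE cells (-0.46, SE 0.11, adjusted p = 0.00443) and not called in RE+GM cells (-0.03). Slc12a9 changed by 0.25 (SE 0.08, adjusted p = 0.0203), lost with median scaling at 0.104 and without RE replicate 1 or Mig replicate 3 (adjusted p reaching 0.0727, without Mig replicate 3), and by 0.27 (SE 0.08, adjusted p = 0.0126). Slc9a9, an endosomal sodium-proton exchanger, rose by 0.57 (SE 0.09, adjusted p = 0.00026) and 0.57 (SE 0.09, adjusted p = 0.00019). Slc4a2, an anion exchanger, rose by 0.52 (SE 0.09, adjusted p = 0.000942) (adjusted p = 0.247 with median scaling) and 0.58 (SE 0.09, adjusted p = 0.000352).

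Of the 3 genes that only carry the name, Slc9a3r1, a scaffold protein that binds a sodium-proton exchanger, rose by 0.80 (SE 0.18, adjusted p = 0.00282) in RE+GM cells (0.47, not called, in RE cells). Slc4a1ap changed by -0.41 (SE 0.13, adjusted p = 0.02) in RE+GM cells, lost without RE+GM replicate 1 or 2 or Mig+GM replicate 1 or 2 (adjusted p reaching 0.0702, without RE+GM replicate 1). Slc7a6os changed by -0.27 (SE 0.08, adjusted p = 0.0146), lost without Mig replicate 2 (adjusted p = 0.0541), and by -0.26 (SE 0.08, adjusted p = 0.0145), lost with median scaling at 0.203 and without RE+GM replicate 2 (adjusted p = 0.0673).

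Fewer genes changed in the remaining classes. Slc27a1, a fatty acid importer, was the only called probe of 10 for lipids, choline and bile acids, with 0.63 (SE 0.15, adjusted p = 0.00539) and 0.90 (SE 0.15, adjusted p = 0.000428). It was detected on more RUNX1-ETO than vector arrays as listed above, so these values are a description. The choline carrier-like Slc44a2 was not called (0.35 and -0.19). Slc29a3, a lysosomal nucleoside carrier, had 8.74, 8.17 and 8.67 in RE against 8.08, 7.53 and 7.43 in Mig cells and 8.33, 8.11 and 8.30 in RE+GM against 7.94, 7.47 and 7.46 in Mig+GM cells. Its groups did not overlap, and it rose by 0.85 (SE 0.20, adjusted p = 0.00528) and 0.62 (SE 0.20, adjusted p = 0.0237), at adjusted p of 0.109 and 0.0522 with median scaling. The call with GM-CSF was also lost without RE+GM replicate 1 or 3 or Mig+GM replicate 2 or 3 (adjusted p reaching 0.0816, without Mig+GM replicate 2). Slc29a1, the nucleoside carrier of the cell surface, was not called (0.10 and -0.18). Slc22a5, the carnitine importer, was not called on its brightest probe (-0.04 and 0.04), while 1 of its other probes was lower in RE+GM cells. Slc22a18, of the organic ion family, gave 0.35 (SE 0.10, adjusted p = 0.0149) and 0.27 (SE 0.10, adjusted p = 0.0459), and both calls were lost with median scaling (adjusted p = 0.0826 and 0.061) and without single arrays. The first was lost without RE replicate 2 or Mig replicate 3 (adjusted p reaching 0.0682, without Mig replicate 3) and the second without any single array other than RE replicate 1 and 2, Mig replicate 1 and 3 and Mig+GM replicate 2 (adjusted p reaching 0.137, without Mig+GM replicate 3).

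RefSeq promoter windows of build GRCm38.p6 were found for 125 of the 158 member genes (172 windows), and the 250 bases before the start were searched on both strands for 6 short motifs. The E-box letters CACGTG, bound by factors of the Myc and Mitf families, were in 23 of 172 member windows (13.4%), against 6.02% of all 32851 windows of the table. They were in 9.52% of windows of genes called higher in RE cells and in 21.4% (6 of 28) of those of genes called lower. The RUNX letters TGTGGT were in 14.5% of member windows and 14% of all, in 19% of windows of genes called higher and 7.14% of genes called lower. The interferon-type letters GAAA-NN-GAAA (1.74% of member and 2.98% of all windows), the amino acid response letters TGATGNAA (2.91% and 3.45%) and the metal response letters TGCACNC (14.5% and 10.4%) and TGCGCNC (14.5% and 12.5%) completed the search. Each pattern was counted on its own, a window can hold several that overlap, and a match is only a description of the sequence. Windows of 2 genes that fell and 1 that rose are shown because they hold the E-box, in capitals: Slc38a5 at chrX:8271131-8271380 (plus strand), with the first E-box base 30 bases before the start, Slc20a1 at chr2:129198523-129198772 (plus strand), with E-boxes 175 and 22 bases before it, and Slc41a3 at chr6:90618996-90619245 (plus strand), with it 213 bases before.
Slc38a5: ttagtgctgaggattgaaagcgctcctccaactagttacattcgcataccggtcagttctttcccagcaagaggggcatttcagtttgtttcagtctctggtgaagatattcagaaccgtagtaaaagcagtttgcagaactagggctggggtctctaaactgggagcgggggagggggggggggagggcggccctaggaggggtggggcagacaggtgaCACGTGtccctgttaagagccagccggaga
Slc20a1: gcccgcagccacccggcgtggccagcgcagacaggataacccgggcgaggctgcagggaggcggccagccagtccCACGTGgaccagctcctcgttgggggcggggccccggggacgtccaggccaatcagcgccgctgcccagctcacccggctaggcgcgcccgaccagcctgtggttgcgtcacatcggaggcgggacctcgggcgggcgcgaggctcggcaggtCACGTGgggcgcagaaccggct
Slc41a3: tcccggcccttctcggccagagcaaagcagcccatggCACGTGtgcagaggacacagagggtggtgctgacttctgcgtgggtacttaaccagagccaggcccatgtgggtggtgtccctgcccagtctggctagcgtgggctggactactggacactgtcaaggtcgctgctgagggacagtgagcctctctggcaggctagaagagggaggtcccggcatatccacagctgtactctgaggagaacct
Slc38a5 and Slc20a1 were called lower in both comparisons and Slc41a3 higher, so the same letters stand before genes that moved in opposite directions.

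GM-CSF in vector cells left the carriers without a call. In Mig+GM against Mig cells limma called 0 of 206 members (0.00702% of all probes tested, a single probe). Unadjusted p from limma was under 0.05 for 6 higher and 11 lower members (8.25%). The share of all probes under that rule was not counted, so this says nothing about the carriers in particular. The replicate block, the other normalizations and the other alternatives tried gave 0 as well. In RE cells 4 members were higher and 1 lower in RE+GM than in RE cells (2.43% of members against 2.17% of all probes tested). With the replicate number as a block, 11 were higher and 6 lower (5.43% of all probes). RE and RE+GM arrays of the same number correlated at 0.107 to 0.319 after removal of group means. Fitted on the arrays of RE+GM and RE cells alone, 1 was higher (Slc26a4) and 0 lower (0.688% of all probes). These counts rest on single arrays, since without RE replicate 3 they were 11 higher and 7 lower (8.32% of all probes). Without RE+GM replicate 1 or 2 they were 2 higher and 0 lower (1.09% and 0.745% of all probes).

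Slc26a4, the anion exchanger pendrin, rose most with GM-CSF in RE cells. Its log2 signal was 8.45, 8.64 and 7.71 in RE+GM against 6.44, 6.49 and 6.53 in RE cells, and 6.41, 6.25 and 6.46 in Mig+GM against 6.19, 6.27 and 6.37 in Mig cells. Only the RE+GM arrays rose clear of the background, since the other 3 groups lay between 6.19 and 6.53, at its edge. The change was 1.78 (SE 0.19, adjusted p = 0.000694) in RE cells and 0.10 (adjusted p = 0.999) in Mig cells. The difference between them, the interaction of RUNX1-ETO and GM-CSF, was 1.68 (SE 0.26, adjusted p = 0.0351), the only member called (0.218% of all probes). That call was lost with median scaling (adjusted p = 0.0544), when only probes above background on 6 arrays were tested, and without any single array other than RE replicate 3 and RE+GM replicate 3 (adjusted p reaching 0.121, without RE replicate 2). In RE+GM against Mig+GM cells it was 1.89 (SE 0.19, adjusted p = 9.58e-06). Its window at chr12:31559985-31560234 (minus strand, GRCm38.p6) is shown because it is 1 of 3 member windows with the interferon-type letters, which are in capitals and begin 147 bases before the start.
Slc26a4: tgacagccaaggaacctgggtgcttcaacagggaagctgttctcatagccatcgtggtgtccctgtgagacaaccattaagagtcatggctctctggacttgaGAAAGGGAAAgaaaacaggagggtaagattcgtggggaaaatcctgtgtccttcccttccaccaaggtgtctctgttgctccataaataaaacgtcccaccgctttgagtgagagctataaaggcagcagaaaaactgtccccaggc
The other members with these letters were Slc37a1, higher in RE and in RE+GM cells, and Slc25a15, lower in both.

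Slc7a2, a cationic amino acid carrier that brings arginine into activated macrophages, had 8.24, 8.40 and 8.02 in RE+GM against 7.33, 6.75 and 7.31 in RE cells, and 6.57, 6.47 and 6.49 in Mig+GM against 6.60, 6.22 and 6.43 in Mig cells. RE+GM arrays lay above all RE arrays, which in turn lay above all Mig arrays. It rose by 1.09 (SE 0.16, adjusted p = 0.00524) with GM-CSF in RE cells, by 0.72 (SE 0.16, adjusted p = 0.00389) in RE against Mig and by 1.71 (SE 0.16, adjusted p = 6.81e-06) in RE+GM against Mig+GM cells. For Slc7a2, Mig replicate 2 lay below background. The call between RE+GM and RE cells was lost when the arrays of those 2 groups alone were fitted (adjusted p = 0.0558). Its interaction was 0.997 (SE 0.23, adjusted p = 0.146), which did not pass. Slc36a1, a proton-coupled amino acid exporter of lysosomes, had 7.21, 7.18 and 7.11 in RE+GM against 6.37, 6.69 and 6.72 in RE cells, and 6.34, 6.32 and 6.32 in Mig+GM against 6.40, 6.26 and 6.35 in Mig cells. The RE+GM arrays were the highest and close together, with a change of 0.57 (SE 0.10, adjusted p = 0.0134), lost without RE+GM replicate 1 or 2 (adjusted p reaching 0.0684, without RE+GM replicate 2). RE replicate 1, Mig replicate 2 and Mig+GM replicates 1 and 2 lay below background for Slc36a1, so its changes rest partly on values at the floor. Slc4a8, a sodium-driven chloride-bicarbonate exchanger, had 7.09, 7.08 and 6.89 in RE+GM against 8.27, 7.92 and 7.38 in RE cells, and 7.998, 7.71 and 7.80 in Mig+GM against 7.55, 7.52 and 7.68 in Mig cells. It fell in RE+GM cells (-0.84, SE 0.18, adjusted p = 0.0362, lost without any single array other than RE replicate 3 and Mig+GM replicate 1 and 2, adjusted p reaching 0.14, without RE replicate 2), below both vector groups. A probe of Slc35b3 was also called higher (0.43, SE 0.10, adjusted p = 0.0433), and its brightest probe passed with the replicate block (0.46, adjusted p = 0.0307).

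**Figure D5:**
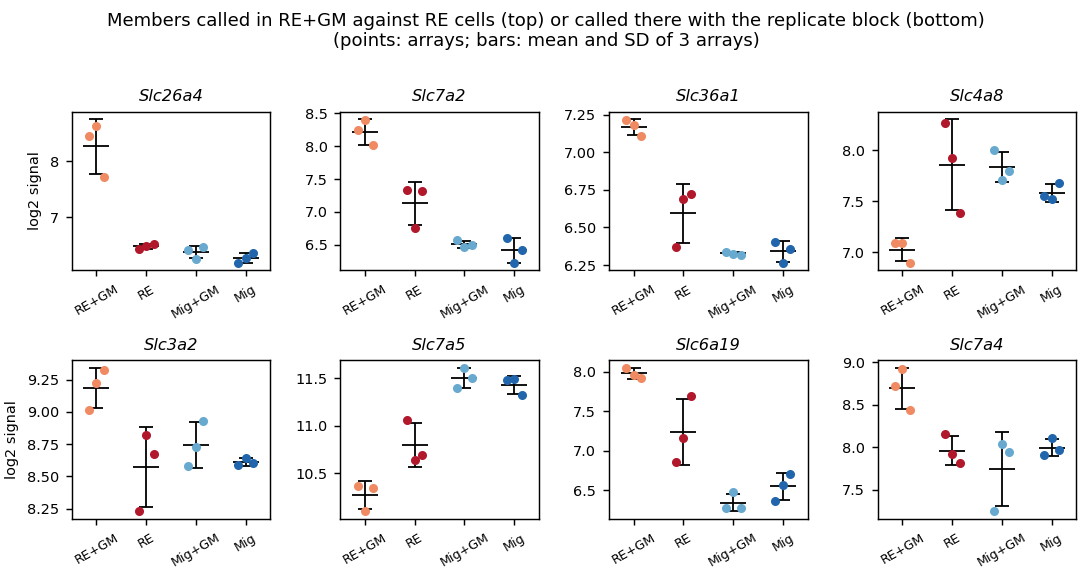
Log2 signal of 8 members by group, with RE+GM left of RE and Mig+GM left of Mig cells. Points are arrays and bars the mean and SD of 3 arrays. The upper row holds genes called in RE+GM against RE cells and the lower row genes called there with the replicate block: Slc26a4 reaches 7.71 to 8.64 in RE+GM cells and stays at 6.53 or less elsewhere.

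Both chains of the large neutral amino acid carrier were among the members called only with the replicate block. With GM-CSF in RE cells Slc3a2 changed by 0.61 (SE 0.15, adjusted p = 0.0611) (block adjusted p = 0.0153) and Slc7a5 by -0.53 (SE 0.13, adjusted p = 0.0575) (block adjusted p = 0.0395), in opposite directions. The arginine-carrier relative Slc7a4 changed by 0.73 (block adjusted p = 0.0488) and Slc6a19 by 0.74 (0.0277). Slc6a13 changed by -0.46 (0.0423), Slc48a1 by -0.41 (0.0479) and Slc35c1 by -0.51 (0.0209). The summed signal of 4 megakaryocyte markers was 5446 to 12170 in RE+GM against 2073 to 3558 in RE cells, with Ppbp called higher (log2 change 4.29) and Itga2b (-0.77) and Gp9 (-0.36) going the other way without a call. That of 4 endothelial markers was 3739 to 5467 in RE+GM against 1198 to 3063 in RE cells. Of these, Cdh5 was called higher, at least 1.15-fold over RE arrays that were all below background. Pecam1 (1.17), Kdr (-0.03) and Tek (-0.02) were not called. The part of either sum in these changes was not tested.

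Other transport genes were listed beside the carriers. Of 21 tested ABC transporters, pumps that use ATP, 3 were higher and 4 lower in RE cells and 4 higher and 7 lower in RE+GM cells. The heme and porphyrin transporter Abcb6 was lower by 1.49 and 1.23 on the log2 scale in them, and the cholesterol exporter Abcg1 higher by 0.72 and 0.47. Of 4 organic anion carriers of the Slco family, Slco3a1 was called, at 1.80 and 2.28. Of 7 aquaporins, 2 were higher and 1 lower in RE cells and 4 higher and 1 lower in RE+GM cells, with the glycerol and water channel Aqp3 at 1.67 and 3.28 and the red cell water channel Aqp1 at -2.73 and -1.35. Aqp3 was above background on 3 RE and 3 RE+GM arrays but on 1 Mig and 1 Mig+GM array. Its changes thus rest partly on values at the floor and are a description. Of 3 subunits of the sodium-potassium pump, which maintains the gradient that many carriers use, Atp1b3 was higher in both (0.45 and 0.41) and Atp1b1 lower in both, at least 1.23-fold in RE (adjusted p = 0.00287) and 1.11-fold in RE+GM cells (adjusted p = 0.0143), where it was below background on all arrays. Of 15 tested partners and related genes, 3 were higher and 2 lower in RE cells and 4 higher and 3 lower in RE+GM cells, with the asparagine synthetase gene Asns at -1.16 and -1.39 and the stress response factor gene Ddit3 at 2.66 and 3.07. Of the solute carriers left out by the rule, the iron exporter Slc40a1 was lower by 2.38 and 1.99 and the iron importer Slc11a2 by 0.75 and 0.73. Slc4a1, the red cell anion exchanger, was above background on only 3 arrays. It was not called in RE cells. Against Mig+GM cells, whose arrays were all below background, it was called higher (adjusted p = 0.014), by at least 1.05-fold.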

How the data were processed

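Cells of 4 groups (RE+GM, RE, Mig+GM and Mig, 3 arrays each) were measured on Illumina Mouse Ref-8 v2.0 BeadChips. The authors deposited raw probe intensity values, with no normalization per the file headers and the labels, and a table of normalized values that keeps the order of the raw intensity within each array. Detection p-values were not used here, so background was estimated on each array from the raw intensity. From there intensities were corrected with normexp (offset 50), quantile normalized and taken to log2, and group means were fitted over all 12 arrays with limma 3.58.1 in R 4.3.3 (lmFit and eBayes). Probes above background on at least 3 arrays were tested (14236), with Benjamini-Hochberg adjustment over all of them and a threshold of 0.05. The authors' normalized intensity table, whose medians were 78.42 to 80.73, was taken to log2 as an alternative. No column of the deposited files was left without a sample (0 unused).

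Probes were the unit, and a gene is given by its brightest probe unless stated. Probe IDs were named through the platform annotation supplied with the data. Where a group was below background on all its arrays, the fold is given as at least the ratio to that background. The fit was tested on simulated data with independent noise on each array and changes of at least 2-fold added to RE cells. It recovered most of the larger of these changes. Smaller changes and deviations shared by same-numbered arrays were not simulated, so the test does not bear on them. The members, classes and lists were chosen with earlier results of these data known. The text names, by rule, the 8 largest rises and falls of each RUNX1-ETO comparison, the 5 largest of each other, the gene with the lowest adjusted p of each class, a list of common carriers, and genes whose probes disagree, 54 genes in all. The 51 other member genes described with values were chosen after their values were seen. Same-numbered replicates of RE+GM and Mig+GM correlated at 0.254 to 0.421 between their deviations from group means, and those of RE+GM and RE at 0.107 to 0.319. Pairs of different number reached only 0.056 and 0.094 there. Same-numbered replicates of RE and Mig also correlated positively (0.071 to 0.529), but not always above pairs of different number, which reached 0.227. The block value is therefore given beside results of RE+GM against Mig+GM and RE+GM against RE cells where it changes a call. Replicates of Mig+GM and Mig with the same number deviated together most (0.62 to 0.737), and the block gave 0 called members there. The number of arrays limits the precision. Figures were drawn with matplotlib 3.10.9. Promoter windows are those of RefSeq. Alternatives were another offset, filter, normalization, unit, set of arrays, background limit, a minimum fold, the replicate block, and each array left out.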

Additional observations from a re-analysis of the deposited data

Results flagged for a closer look

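In the main fit the response of Slc26a4 to GM-CSF was called different between RUNX1-ETO and vector cells, a call that many alternatives lost. GM-CSF changed its log2 signal by 1.78 in RE cells (8.45, 8.64 and 7.71 in RE+GM against 6.44, 6.49 and 6.53 in RE cells) and by 0.10 in Mig cells (6.41, 6.25 and 6.46 in Mig+GM against 6.19, 6.27 and 6.37 in Mig cells). The difference of 1.6807 (SE 0.26) passed limma's interaction test at an adjusted p of 0.0351. That call was lost with median scaling, with the minimum fold and when only probes above background on at least 6 arrays were tested. It was also lost without any single array other than RE replicate 3 and RE+GM replicate 3 (adjusted p reaching 0.121). RE, Mig+GM and Mig arrays lay between 6.19 and 6.53, at the edge of background, so the difference rests partly on values at the floor. The signal was higher on 3 of 3 RE+GM arrays than on any other array. It was the only one of 206 members to pass, beside 0.218% of all probes tested.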

How the results depend on the processing

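Without GM-CSF the counts of members (46 higher, 38 lower) stayed within 1.5 times of these under all but 3 of the settings tried. Median scaling gave 27 higher and 56 lower, with 65 of the 84 calls shared and 0 opposite. A fold required to exceed 1.5 gave 15 higher and 7 lower, and members above background on all 12 arrays gave 30 higher. With GM-CSF (57 and 46) the exceptions were the minimum fold (19 and 9) and members on all 12 arrays (37 higher). For RE+GM against RE cells (4 higher, 1 lower) the authors' values gave 9 and 4, arrays of those 2 groups alone 1 and 0, the replicate block 11 and 6, and the minimum fold 1 and 0. Members on all 12 arrays gave 1 higher, and background at 3 SDs gave 2 higher. For the interaction (1 higher, 0 lower) the higher count was 0 with median scaling, with probes above background on 6 arrays, with the minimum fold, with members on all 12 arrays and with background at 3 SDs. Mig+GM against Mig cells gave 0 throughout.

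Leaving out single arrays gave 36 to 46 higher and 33 to 41 lower members in RE against Mig, 48 to 60 and 34 to 51 in RE+GM against Mig+GM, 2 to 11 and 0 to 7 in RE+GM against RE cells, and 0 to 2 and 0 to 2 for the interaction. Of the member genes described, Slc15a4 turned sign with median scaling (-0.0228, adjusted p = 0.928), and no other called change turned sign under any setting run (changes without a call near 0 could). Median scaling moved the median of all probes by -0.11 in RE against Mig, 0.10 in RE+GM against RE cells and 0.21 in the interaction. The cause of these differences was not tested, apart from the smaller number of members or arrays that some settings leave by construction. The replicate block gave 52 higher and 46 lower members in RE against Mig, and 63 and 52 in RE+GM against Mig+GM. It changed the call of 14 members in each, and no called direction. The chip as a block was not run, since the headers give none. For dim probes near the background, the arrays bound a fold but do not measure it.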

Other observations

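Several carriers known from lysosomes and phagosomes moved, and not in one direction. Slc15a3 (peptides, 3.35 and 2.68 on the log2 scale without and with GM-CSF), Slc46a3 (2.07 and 2.91), Slc2a6 (hexoses, 1.44 and 0.88) and Slc29a3 (nucleosides, 0.85 and 0.62) were higher in RE and RE+GM cells, while Slc11a1 (metals, -1.32 and -1.52) and Slc48a1 (heme, -1.29 and -1.58) were lower. Slc36a1 (amino acids) was higher in RE+GM cells (0.84, over Mig+GM arrays at the edge of background or below it) and not called in RE cells (0.25). These genes were grouped after their values were seen, so the grouping has no test.

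Among the carriers of heme and iron, also grouped after their values were seen, Slc48a1 and the left-out Slc40a1 (-2.38 and -1.99) and Slc11a2 (-0.75 and -0.73) were lower in both comparisons, and the ABC transporter Abcb6 (-1.49 and -1.23) likewise. Others of this kind were called higher in both, the iron carrier Slc25a28 (0.59 and 0.38, neither called with median scaling) and Slc46a1 (0.53 and 0.35), which carries folate and heme. The summed erythroid marker signal was 1767 to 2843 in RE and 10510 to 11770 in Mig cells, and its part in these changes was not tested.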
